A study of Mus musculus with 4 samples.

Results

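The genes described are 70 RNA-binding splicing regulators of the mouse, out of 13824 gene symbols with deposited values. They were chosen by name, as the SR proteins (Srsf), the heterogeneous nuclear ribonucleoproteins (hnRNP), MBNL, CELF, RBFOX, RBM, PTBP, QK, KHDRBS, NOVA and ESRP, and 74 listed symbols matched. A gene was kept if its FPKM, summed over its listed transcripts, averaged at least 1 over the 4 libraries. FPKM relate the fragments of a transcript to its length and to the size of the library, so they compare genes per length. The genes kept were 10 SR proteins, 18 hnRNPs, 30 RBM, 3 MBNL, 2 CELF, 1 RBFOX, 3 PTBP and 2 KHDRBS genes and Qk, and 0 Nova or Esrp symbols were listed. Of the 70 genes, 7 were muscle regulators (Mbnl1, Mbnl2, Mbnl3, Celf1, Celf2, Rbfox2 and Rbm20) and 63 were general ones. The 4 symbols under the limit were Rbfox1, Rbm24, Rbm43 and Celf5. Nearest to it were Mbnl3 inside, at a mean of 2.73 FPKM, and Rbfox1 outside, at 0.944 FPKM.

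RNA-seq was done on C2C12 cells, a mouse myoblast line that fuses into myotubes when serum is withdrawn. In 2 libraries the cells had received 30 nM of an siRNA against Mef2a (siMEF2A), and in the other 2 the same amount of a scrambled siRNA. All were harvested after 48 h in differentiation medium, so both groups carried an siRNA and both were differentiating. Whether the libraries of a group are from separate cultures is not in the labels, and p-values therefore describe a spread between libraries that may be technical.

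Pre-mRNA splicing is steered by RNA-binding proteins that sit near exons and favour or block their use. SR proteins mostly bind exonic enhancers and promote inclusion, whereas many hnRNPs and PTB proteins promote skipping. In developing muscle, MBNL, RBFOX, RBM20 and RBM24 levels or nuclear amounts set adult patterns, and CELF proteins oppose MBNL at many exons. Most SR and several hnRNP genes carry a so-called poison exon or a retained intron of their own. Its inclusion brings in a premature stop codon, and the transcript is then a target of nonsense-mediated decay (NMD). MEF2A, the silenced factor, is a MADS-box transcription factor of muscle.

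The target gene responded. Mef2a was at 12.7 and 14.3 FPKM in the siMEF2A libraries, against 25.8 and 32.2 FPKM in the scrambled libraries, which is 46.5% of scrambled (log2 difference -1.05, SE 0.154, limma adjusted p = 2.40e-05). Of 18 tested skeletal muscle markers, out of 20 named, 16 were called lower in siMEF2A by limma at an adjusted p under 0.05. Of all 11822 genes tested, 1.34% were called lower. The summed level of the markers was 1779 and 1705 FPKM in siMEF2A, against 4041 and 4089 FPKM in scrambled libraries. Among the called markers were Myl4, Myh3, Tnnc2 and Tnni1, which encode contractile proteins. In such bulk samples fewer cells of a type and less RNA per cell cannot be told apart. Of 5 markers each, 1 endothelial, 1 immune and 1 adipocyte gene were listed, with sums from 0.512 to 1.70 FPKM in siMEF2A and from 0.630 to 2.30 FPKM in scrambled libraries. No epithelial marker was listed, and of 5 neuronal markers Stmn2 alone was, at 87.2 and 77.7 FPKM in siMEF2A, against 69.0 and 71.1 FPKM in scrambled libraries. What part these markers have in the values below was not tested. Estimated depth relative to scrambled replicate 1 was 0.849 in both siMEF2A libraries and 1.05 in scrambled replicate 2, and absolute depth is unknown. Scrambled replicate 1 stood apart in a measure that bears on splicing. Of 3641 genes with a listed transcript annotated as an NMD target or as retaining an intron, 1862 (51.1%) had the largest share of their FPKM in such transcripts in that library. Some results that rest on this library are given with and without it, and for others its value is pointed out.

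Stop codons by which some NMD transcripts of the regulators are marked for decay are shown here. In the isoform shares given later, NMD transcripts are counted together with intron-retaining ones, which hold more of the summed FPKM. Of 41 listed NMD transcripts of the 70 genes, 16 transcripts from 7 genes have their annotated stop in an exon that no listed coding transcript of the gene overlaps. The most abundant of the 41, Srsf6-201 (mean 99.5 FPKM), is not among these 16, as the coding Srsf6-202 overlaps its stop exon. From the 16, a single exon is shown for the 5 genes whose transcripts had the highest mean FPKM, Srsf3, Rbm39, Rbm3, Srsf11 and Hnrnpl. Each line gives the exon from its 5′ end through its stop codon, which is in capitals, from the GENCODE M21 annotation and the GRCm38 (mm10) genome.
Srsf3-201: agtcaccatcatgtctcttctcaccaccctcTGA
Rbm39-225: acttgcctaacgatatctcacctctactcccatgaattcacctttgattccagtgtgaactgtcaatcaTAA
Rbm3-208: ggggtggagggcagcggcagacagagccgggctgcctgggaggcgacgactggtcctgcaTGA
Srsf11-206: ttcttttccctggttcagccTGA
Hnrnpl-213: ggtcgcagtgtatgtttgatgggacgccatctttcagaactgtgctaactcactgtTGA
The Srsf3 stretch lies at chr17:29039454-29039487 on the plus strand, at the start of exon 4 of 7, an exon of 456 bases. The Rbm39 stretch is chr2:156178881-156178952 on the minus strand, and the Rbm3 stretch is chrX:8144383-8144445 on the minus strand. The Srsf11 stretch is chr3:158024209-158024231 on the minus strand, and the Hnrnpl stretch is chr7:28817335-28817393 on the plus strand. The stretches run from 23 bases (Srsf11) to 72 bases (Rbm39), and they end in TGA except in Rbm39, which ends in TAA. The transcript with the Srsf3 exon was at 22.7 and 18.6 FPKM in siMEF2A, against 22.3 and 19.4 FPKM in scrambled libraries. The Rbm39 transcript was at 18.9 and 18.6 FPKM in siMEF2A, against 18.6 and 16.5 FPKM in scrambled libraries. For Hnrnpl the values were 4.89 and 5.20 FPKM in siMEF2A, against 7.91 and 5.02 FPKM in scrambled libraries. In all of these the groups overlapped, and the high Hnrnpl value was that of scrambled replicate 1.

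Of the 7 muscle regulators, 0 passed the test in either direction, beside 1.74% of all genes tested, a share at which lists of this size hold few or no calls. Rbfox2, whose protein binds a GCAUG element beside muscle exons, was the most abundant on the FPKM scale. It was at 33.5 and 40.5 FPKM in siMEF2A, against 33.8 and 38.5 FPKM in scrambled libraries. Mbnl1, the main muscleblind gene of adult muscle, was at 38.2 and 42.3 FPKM in siMEF2A, against 28.7 and 34.0 FPKM in scrambled libraries. The lower siMEF2A library of Mbnl1 was above the higher scrambled one, while the Rbfox2 groups overlapped. Celf1, whose protein binds GU-rich RNA, was at 27.8 and 31.0 FPKM in siMEF2A, against 28.3 and 28.8 FPKM in scrambled libraries. Its relative Celf2 was at 24.6 and 28.9 FPKM in siMEF2A, against 22.8 and 28.6 FPKM in scrambled libraries. Both CELF genes overlapped between groups, with log2 differences of 0.04 for Celf1 and 0.06 for Celf2. Mbnl2 was at 21.4 and 25.7 FPKM in siMEF2A, against 17.8 and 24.3 FPKM in scrambled libraries. Rbm20, the regulator of titin splicing, was at 12.5 and 14.0 FPKM in siMEF2A, against 13.5 and 14.9 FPKM in scrambled libraries. Mbnl3, which is known from proliferating myoblasts, was at 3.01 and 3.35 FPKM in siMEF2A, against 2.00 and 2.56 FPKM in scrambled libraries. By mean FPKM over the 4 libraries the order was Rbfox2 (36.6), Mbnl1 (35.8), Celf1 (29.0), Celf2 (26.2), Mbnl2 (22.3), Rbm20 (13.7) and Mbnl3 (2.73). Each neighbour in the order from Rbfox2 to Mbnl2 overlapped with the next over the 4 libraries, whereas all values of Rbm20 lay under those of Mbnl2, and all values of Mbnl3 under those of Rbm20.

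**Figure D1:**
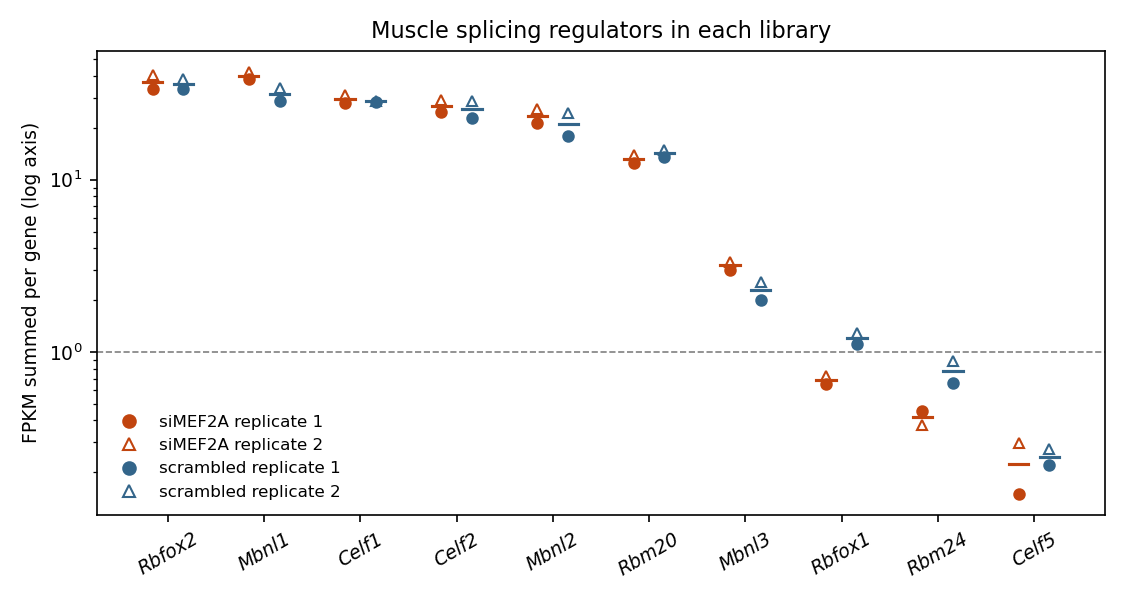
FPKM summed per gene (log axis) of the muscle splicing regulators in each library, with siMEF2A left of scrambled for each gene horizontal lines at the group means and a dashed line at the limit of 1 FPKM. Rbfox1 and Rbm24, whose means are under the limit, are lower in both siMEF2A libraries than in both scrambled ones, while Mbnl1 and Mbnl3 are higher in both.

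Differences between the groups were tested with limma on log2(FPKM + 1), as siMEF2A minus scrambled, with p-values adjusted over all 11822 genes tested. This scale understates changes of genes with low FPKM, and the fold intervals given are folds of FPKM + 1. Mbnl1 had a log2 difference of 0.35 (SE 0.155, unadjusted p = 0.0295, limma adjusted p = 0.602) and Mbnl3 of 0.35 (SE 0.149, limma adjusted p = 0.537). The siMEF2A mean was 128% of the scrambled mean for Mbnl1 and 139% for Mbnl3, and the 95% interval of the Mbnl1 fold was 1.03 to 1.59. Both log2 differences stayed positive under every alternative run, between 0.23 and 0.47 for Mbnl1 and between 0.23 and 0.48 for Mbnl3, in both genes lowest without scrambled replicate 1. For Mbnl2 the log2 difference was 0.16, and without scrambled replicate 1 it was -0.05. Rbm20 had a log2 difference of -0.09, with a fold interval of 0.759 to 1.16. Over the 7 muscle regulators the median log2 difference was 0.06, the same as the 0.06 of the 63 general regulators and near the 0.04 of all genes tested. Without scrambled replicate 1 the median of the muscle regulators was -0.05, with 3 of 7 positive in place of 6 of 7.

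Of the 3 muscle regulators under the limit, Rbfox1 and Rbm24 had lower values in both siMEF2A libraries. Rbfox1, the RBFOX gene of adult muscle, heart and brain, was at 0.648 and 0.726 FPKM in siMEF2A, against 1.12 and 1.29 FPKM in scrambled libraries. Rbm24, which promotes inclusion of muscle exons, was at 0.456 and 0.378 FPKM in siMEF2A, against 0.662 and 0.885 FPKM in scrambled libraries. The groups did not overlap for either gene, and the siMEF2A mean was 57.2% of scrambled for Rbfox1 and 53.9% for Rbm24. In a limma fit without the filter on low values the log2 difference was -0.38 for Rbfox1 (SE 0.118, limma unadjusted p = 0.00534, limma adjusted p = 0.202). For Rbm24 it was -0.32 (limma unadjusted p = 0.0135, limma adjusted p = 0.356), so neither gene passed. Celf5, a CELF gene mostly known from brain, was at 0.150 and 0.297 FPKM in siMEF2A, against 0.220 and 0.273 FPKM in scrambled libraries, with overlap between groups and a log2 difference of -0.03.

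Across the 70 regulators, limma called 0 higher and 0 lower at an adjusted p under 0.05, where it called 206 of the 11822 genes (1.74%), 48 of them higher (0.406%) and 158 lower (1.34%). At an unadjusted p under 0.05 there were 4 regulators (Rbm41, Mbnl1 and Mbnl3 higher, Rbm38 lower), against 6.38% of all genes (3.1% higher, 3.28% lower). The groups did not overlap in 14 regulators, 11 higher and 3 lower in siMEF2A, beside 27.9% of all genes (18.8% higher, 9.12% lower). Whether the 14 of 70 differ from that background share was not tested. In 44 of the 70 (62.9%) the log2 difference was within 0.1 of 0, against 52.4% of all genes. The 95% interval of the fold of FPKM + 1 lay within 1.5-fold either way in 65 regulators. Larger changes of these on that scale were outside the interval, while the interval excluded no change in 4. The regulators were also abundant, 55 of them above the median of all genes tested, with a median of 29.1 FPKM against 11.7 FPKM.

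**Figure D2:**
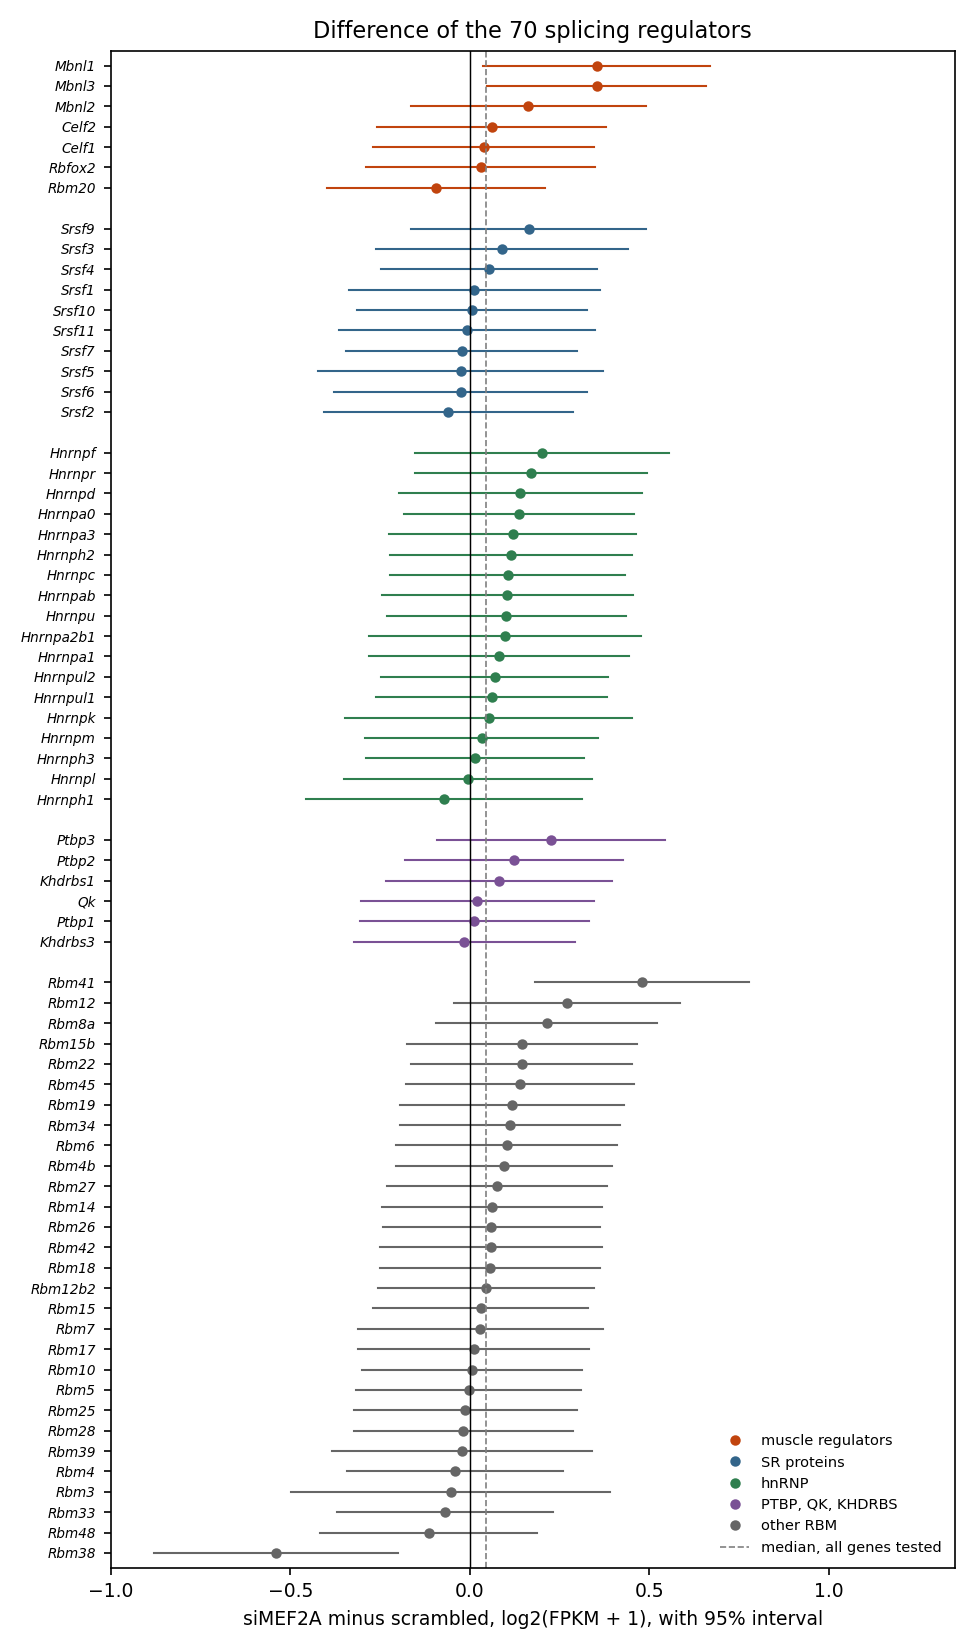
Log2 differences, siMEF2A minus scrambled, of the 70 regulators by family on the log2(FPKM + 1) scale, with the 95% interval of the limma fit. The dashed line is the median of all genes tested (0.04), and the intervals of Mbnl1, Mbnl3, Rbm41 and Rbm38 do not reach 0.

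The SR proteins, which promote exon inclusion, were centred on 0, with a median log2 difference of -0.00 and 5 of 10 positive. They ranged from -0.06 (Srsf2) to 0.16 (Srsf9). Srsf9 was at 57.8 and 59.2 FPKM in siMEF2A, against 46.3 and 58.5 FPKM in scrambled libraries. The low value was that of scrambled replicate 1. Of the hnRNPs, 16 of 18 were positive with a median of 0.10, beside 7552 of all 11822 genes (63.9%) positive, and the highest was Hnrnpf at 0.20. Hnrnpf was at 116 and 124 FPKM in siMEF2A, against 90.5 and 121 FPKM in scrambled libraries, again with scrambled replicate 1 low. The hnRNP direction flipped without scrambled replicate 1, to a median of -0.02 with 7 of 18 positive, and under median-ratio scaling the median was 0.05, where that of all genes was -0.00. The SR median was 0.04 without that library, with 9 of 10 positive. Without it the median over all 70 regulators was -0.00, with 34 positive and 36 negative, in place of 52 positive and 18 negative. The PTB genes Ptbp1, Ptbp2 and Ptbp3 had log2 differences of 0.01, 0.12 and 0.23. Ptbp1, which represses neuronal and muscle exons, was at 47.3 and 54.3 FPKM in siMEF2A, against 48.3 and 52.2 FPKM in scrambled libraries. Qk, whose protein binds ACUAA elements and acts in muscle and glia, was at 28.5 and 34.9 FPKM in siMEF2A, against 27.8 and 34.7 FPKM in scrambled libraries. In both genes replicate 2 was the higher library of each group, and the groups overlapped.

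The general regulators furthest from 0 were Rbm41 and Rbm38. Rbm41 (chrX:139889511-139998595, minus strand), an RNA-binding protein linked to the minor spliceosome, was at 4.06 and 3.98 FPKM in siMEF2A, against 2.54 and 2.66 FPKM in scrambled libraries. The replicates agreed closely within each group, and the siMEF2A mean was 155% of scrambled (log2 difference 0.48, SE 0.146, limma adjusted p = 0.109). Its transcripts differed. The coding transcript Rbm41-203 was at 1.939 and 1.503 FPKM in siMEF2A, against 1.72 and 2.01 FPKM in scrambled libraries, with overlap. The coding transcript Rbm41-204 was at 1.26 and 1.43 FPKM in siMEF2A, against 0.698 and 0.612 FPKM in scrambled libraries, and the non-coding Rbm41-205 was at 0.598 and 0.915 FPKM in siMEF2A and near 0 in both scrambled libraries. With coding transcripts alone the gene's log2 difference was 0.21. Rbm38 (chr2:173020498-173034734, plus strand), whose protein stabilises the mRNA of the cell cycle inhibitor p21 and is needed for myoblast differentiation, went the other way. It was at 3.13 and 4.73 FPKM in siMEF2A, against 5.07 and 7.23 FPKM in scrambled libraries, or 63.9% of scrambled. Replicate 2 was the higher library in both groups, and the difference was -0.54 on the log2 scale (SE 0.167, fold interval 0.544 to 0.870, limma adjusted p = 0.119). The short coding transcript Rbm38-208 was the most variable, at 0.417 and 1.47 FPKM in siMEF2A, against 0.850 and 3.42 FPKM in scrambled libraries. Rbm38 passed the test under other settings, with limma adjusted p-values from 0.00229 to 0.994 over 14 alternatives. Without siMEF2A replicate 2 the log2 difference was -0.78 (limma adjusted p = 0.0117) and without scrambled replicate 1 it was -0.76 (limma adjusted p = 0.00974), both past the threshold. Without siMEF2A replicate 1 it was -0.30 (limma adjusted p = 0.994) and without scrambled replicate 2 it was -0.32 (limma adjusted p = 0.624). Its exons overlap the opposite-strand genes Gm14453 and Gm20490, from which it cannot be told apart without strand.

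**Figure D3:**
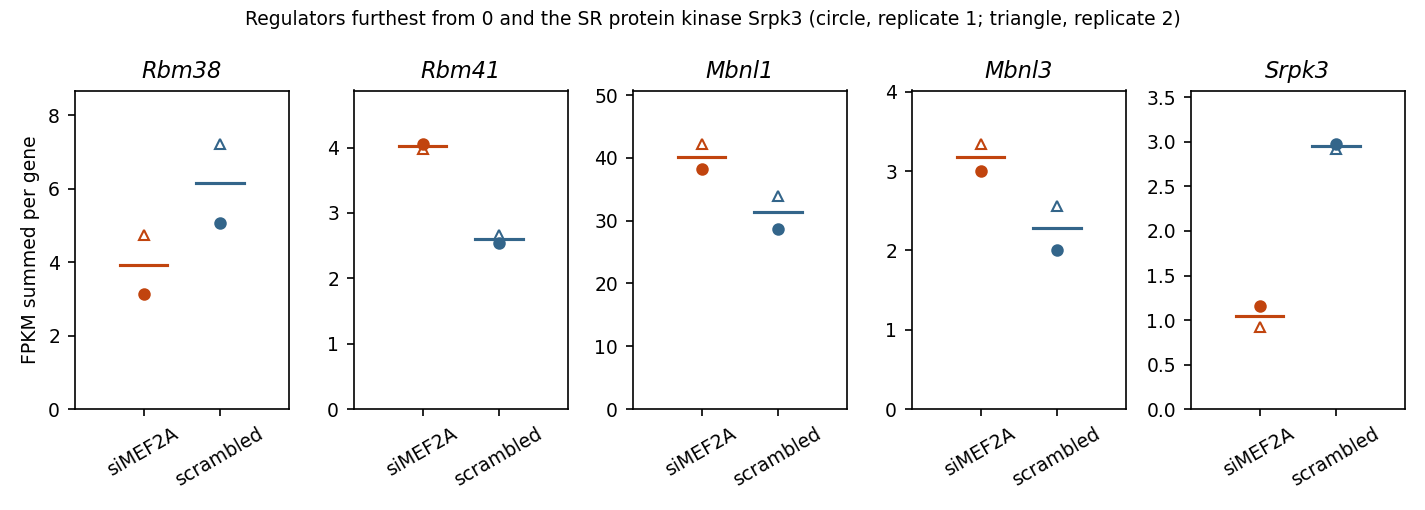
FPKM summed per gene in each library, siMEF2A left of scrambled, for the regulators whose 95% interval did not reach 0 and for the kinase gene Srpk3, with lines at group means and a separate axis from 0 for each gene. The groups do not overlap in any of the 5 panels, and the Rbm38 replicates lie far apart within each group, at 3.13 and 4.73 FPKM in siMEF2A and 5.07 and 7.23 FPKM in scrambled libraries.

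The next general regulators were nearer to 0. Rbm12 had a log2 difference of 0.27, Ptbp3, a PTB paralog, of 0.23, and Rbm8a, the exon junction protein Y14, of 0.21. Rbm12 was at 5.96 and 4.38 FPKM in siMEF2A, against 4.32 and 3.82 FPKM in scrambled libraries, and it shares exon sequence with Cpne1 on the same strand. Rbm8a was at 24.8 and 26.7 FPKM in siMEF2A, against 20.5 and 23.7 FPKM in scrambled libraries. Leaving out 1 library moved these values by over 1.5 times. Rbm12 was at 0.09 without siMEF2A replicate 1 and 0.46 without siMEF2A replicate 2. Ptbp3 was at 0.10 without siMEF2A replicate 2, 0.07 without scrambled replicate 1, 0.36 without siMEF2A replicate 1 and 0.38 without scrambled replicate 2, and Rbm8a was at 0.12 without scrambled replicate 1. On the other side stood Rbm48 at -0.11, Hnrnph1 at -0.07 and Rbm33 at -0.07. Under the alternatives run, Rbm48 ranged from -0.20 to 0.29 and Hnrnph1 from -0.16 to 0.09, so both changed sign. Rbm33 ranged from -0.12 to -0.02. None of the genes in this paragraph passed the test.

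The most abundant regulator was Rbm3, a cold-inducible RNA-binding protein, at 557 and 412 FPKM in siMEF2A, against 578 and 428 FPKM in scrambled libraries. Its replicates differed far more than its groups, with replicate 1 higher in both. Hnrnpk, a poly(C)-binding protein, was at 373 and 349 FPKM in siMEF2A, against 323 and 374 FPKM in scrambled libraries. Srsf5 was at 333 and 340 FPKM in siMEF2A, against 375 and 313 FPKM in scrambled libraries. The G-run binding Hnrnph1 was at 259 and 292 FPKM in siMEF2A, against 303 and 276 FPKM in scrambled libraries. All of these groups overlapped. The last of the 5 highest, Hnrnpa2b1, was at 276 and 281 FPKM in siMEF2A, against 250 and 270 FPKM in scrambled libraries, without overlap and with a log2 difference of 0.10. Replicate 2 was above replicate 1 in both groups in 43 of the 70 regulators and below it in both in 8. The difference between groups exceeded both differences between replicates in 10 regulators. These counts were not made over all genes, so they are not read as a trait of the regulators.

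Some of the regulators had most of their FPKM in transcripts annotated as NMD targets or as retaining an intron, while 37 of the 70, all MBNL and CELF genes among them, had none listed. Transcripts of other non-coding types were not counted, so a gene with none listed need not be all coding. Hnrnph1, 1 of these 37, had a mean of 18.5% of its FPKM in coding transcripts. Summed over the 70 genes the share in NMD and intron-retaining transcripts was 24.3% and 24.1% in siMEF2A, against 27.5% and 23.8% in scrambled libraries. NMD transcripts alone held 6.30% and 6.19% of the summed FPKM in siMEF2A, against 6.74% and 6.38% in scrambled libraries. Intron-retaining ones held 18.0% and 17.9% in siMEF2A, against 20.8% and 17.4% in scrambled libraries. Such transcripts were listed for 33 of the 70, among them 7 of 10 SR, 8 of 18 hnRNP and 15 of 30 RBM genes, and for 3641 of the 11822 genes tested. In 10 regulators (14.3%) they held over 50% of the gene's FPKM, as they did in 464 of the genes tested (3.92%). Those 10 were Qk (84.3%), Srsf4 (75.4%), Srsf11 (73.3%), Srsf3 (69.1%), Hnrnph3 (66.1%), Rbm5 (65.8%), Srsf6 (64.2%), Rbm28 (63.0%), Ptbp1 (53.8%) and Srsf1 (52.6%). The Qk share is that of 1 transcript, Qk-202, whose annotated stop lies in an exon that the coding Qk-201 overlaps. These shares rest on annotation labels, and whether the transcripts are degraded or yield protein was not tested. Srsf6 had the highest level of any such transcript shown here. Its NMD transcript Srsf6-201 was at 98.1 and 98.4 FPKM in siMEF2A, against 105 and 96.8 FPKM in scrambled libraries, while its main coding transcript Srsf6-203 was at 54.8 and 54.1 FPKM in siMEF2A, against 56.0 and 54.4 FPKM in scrambled libraries. The share of NMD and intron-retaining transcripts of Srsf6 was thus 64.0% and 64.1% in siMEF2A, against 65.0% and 63.9% in scrambled libraries. For Srsf3 the share was 66.7% and 69.2% in siMEF2A, against 71.8% and 68.8% in scrambled libraries. Both genes overlapped between groups. How FPKM was divided among overlapping transcripts is an estimate by the authors' tool, and short transcripts are the least certain.

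**Figure D4:**
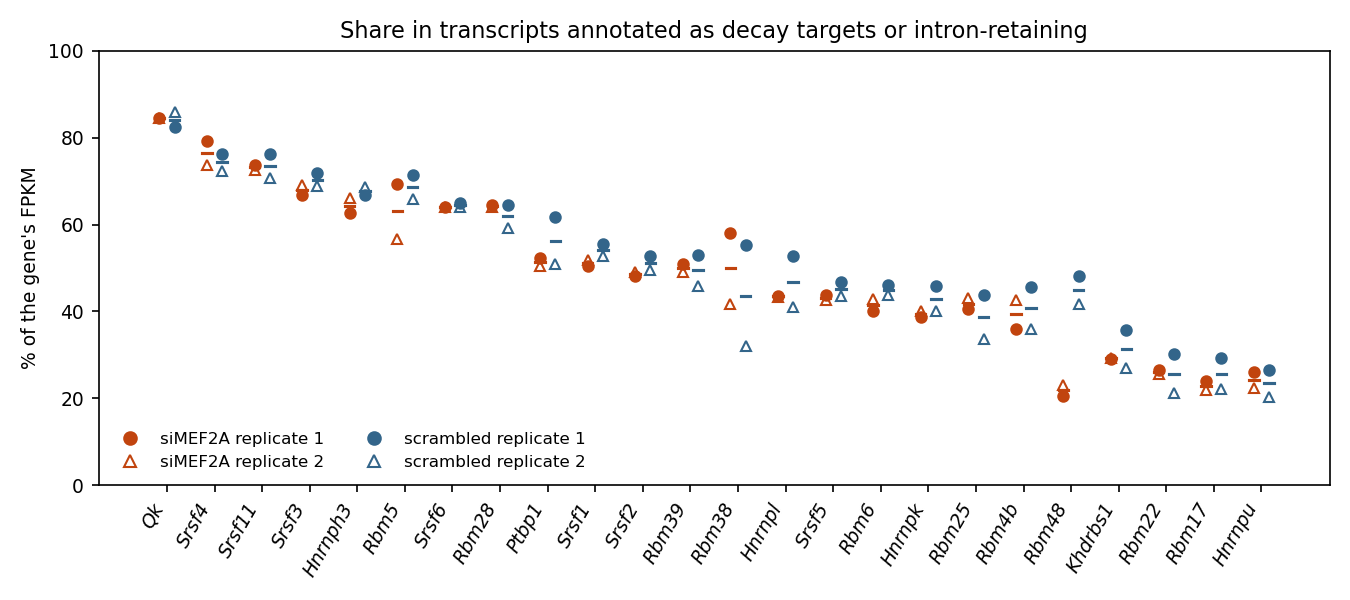
Share of each gene's FPKM (%) in transcripts annotated as NMD targets or as retaining an intron, for the 24 regulators with a mean share of at least 20%, in each library with siMEF2A left of scrambled. Scrambled replicate 1 is the highest library in many of the genes, and Rbm48 has the widest gap between groups.

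Over the 33 regulators the median difference of this share, siMEF2A minus scrambled, was -1.27 percentage points, with 21 lower and 12 higher. It rested on scrambled replicate 1, which had the largest share in 24 of the 33 regulators (72.7%). Against scrambled replicate 2 alone the median difference was 0.45 percentage points, with 15 lower and 18 higher. The summed SR genes had 48.8% and 48.7% of their FPKM in such transcripts in siMEF2A, against 52.1% and 48.6% in scrambled libraries. The hnRNP genes had 12.7% and 11.9% in siMEF2A, against 14.6% and 12.3% in scrambled libraries. In both families scrambled replicate 1 was the highest and the other 3 libraries lay close together. The share did not overlap between groups in 8 regulators, beside 29.9% of the 3641 genes. Of these 8, Hnrnpr was higher and Hnrnph3, Srsf1, Srsf2, Rbm6, Rbm48, Rbm18 and Hnrnpa3 were lower, beside 19.3% lower among all 3641.

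Rbm48, which is needed for splicing of minor-class introns in maize, had the widest gap in this share. Transcripts annotated as NMD targets or intron-retaining held 20.6% and 23.1% of its FPKM in siMEF2A, against 48.1% and 41.8% in scrambled libraries. Its coding transcript Rbm48-201 was at 3.63 and 4.09 FPKM in siMEF2A, against 2.84 and 3.12 FPKM in scrambled libraries. The NMD transcript Rbm48-205 was at 0.505 and 0.707 FPKM in siMEF2A, against 1.46 and 1.21 FPKM in scrambled libraries, and the intron-retaining Rbm48-203 was at 0.439 and 0.521 FPKM in siMEF2A, against 1.17 and 1.03 FPKM in scrambled libraries. The 3 transcripts thus went in opposite directions, with no overlap between groups, while the gene's sum was at 91.2% of scrambled. Exons of Rbm48 overlap the opposite-strand gene 1700109H08Rik, from which they cannot be told apart without strand. The gene was singled out after its values were seen, and its share was given no test.

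In a limma fit per transcript, 269 transcripts of the 70 regulators were tested and 0 were called in either direction at an adjusted p under 0.05, against 0.225% of 23599 transcripts. At an unadjusted p under 0.05 there were 4 higher and 3 lower (all transcripts, 5.67% in either direction), and 58 did not overlap between groups (all transcripts, 29.4%). The transcripts described here were chosen after their values were seen. In Celf1 the coding transcripts went opposite ways. Celf1-205 was at 5.33 and 5.11 FPKM in siMEF2A, against 3.19 and 4.19 FPKM in scrambled libraries (limma adjusted p = 0.858). Celf1-203 was at 5.22 and 7.43 FPKM in siMEF2A, against 9.54 and 7.72 FPKM in scrambled libraries (limma adjusted p = 0.966). The groups did not overlap for either transcript, while those of the gene's sum did. In Mbnl2 the main transcript Mbnl2-202 was at 20.4 and 25.4 FPKM in siMEF2A, against 16.5 and 22.9 FPKM in scrambled libraries. The minor Mbnl2-201 was at 0.937 and 0.324 FPKM in siMEF2A, against 1.36 and 1.45 FPKM in scrambled libraries. Rbm20 had its coding transcript Rbm20-203 at 6.60 and 8.42 FPKM in siMEF2A, against 6.06 and 8.50 FPKM in scrambled libraries, and its NMD transcript Rbm20-201 at 2.12 and 2.13 FPKM in siMEF2A, against 3.67 and 2.46 FPKM in scrambled libraries. The high value of Rbm20-201 was again that of scrambled replicate 1.

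Promoter sequence was read for a MEF2 site, since MEF2A is the silenced factor. RefSeq windows (GRCm38.p6) from 250 bases before to 50 bases after the start site were found for 59 of the 70 regulators. The MEF2 consensus, searched on both strands, occurred in 1 of these 59 symbols (1.69%), against 3.70% of 27025 symbols. The E-box CANNTG, the core bound by MyoD and myogenin, occurred in 67.8% of the regulators, against 75.0% of all symbols. The regulator with the MEF2 consensus was Srsf3, shown here with the match in capitals, above the window of Srpk3, a kinase of SR proteins described next.
Srsf3 promoter: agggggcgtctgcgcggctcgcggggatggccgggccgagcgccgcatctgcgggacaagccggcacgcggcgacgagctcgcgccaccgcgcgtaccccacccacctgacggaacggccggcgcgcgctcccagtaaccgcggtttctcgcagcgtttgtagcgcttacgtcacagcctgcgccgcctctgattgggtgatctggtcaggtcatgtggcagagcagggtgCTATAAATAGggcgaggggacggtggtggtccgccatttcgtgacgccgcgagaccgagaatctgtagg
Srpk3 promoter: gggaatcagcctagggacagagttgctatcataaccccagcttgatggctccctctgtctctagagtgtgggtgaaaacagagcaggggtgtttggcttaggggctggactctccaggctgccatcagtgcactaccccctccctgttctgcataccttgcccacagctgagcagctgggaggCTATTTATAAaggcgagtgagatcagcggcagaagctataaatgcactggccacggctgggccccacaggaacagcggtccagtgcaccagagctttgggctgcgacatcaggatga
The Srsf3 window is chr17:29032410-29032709 on the plus strand, with the match beginning at position -19 from the start site. The Srpk3 window is chrX:73774155-73774454 on the plus strand, with the match at position -67. Both matches also hold TATAAA on one strand, the letters of a TATA box. Srsf3 was at 151 and 130 FPKM in siMEF2A, against 138 and 125 FPKM in scrambled libraries, and the groups overlapped.

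Lists of other splicing genes were read in the same fit. Of 40 other splicing regulators tested, out of 43 named, and of 64 core spliceosome genes tested, out of 66, limma called 0 in either direction, beside 1.74% of all genes, and 0 had an unadjusted p under 0.05, beside 6.38% of all genes. For the adjusted p, counts of 0 in lists of this size are near the background of 1.74%. For the unadjusted p they are under the 6.38% of all genes, and whether they differ from it was not tested. The median log2 difference was 0.03 for the other regulators and 0.04 for the core genes. Among 11 kinases of SR proteins, 1 was called, Srpk3 (chrX:73774405-73778925, plus strand), which is known from striated muscle and has been described as a MEF2 target in mouse. It was at 1.15 and 0.927 FPKM in siMEF2A, against 2.98 and 2.92 FPKM in scrambled libraries, or 35.3% of scrambled. The log2 difference was -0.96 (SE 0.146, limma adjusted p = 4.26e-05), and it passed under all 13 alternatives run. Its coding transcript Srpk3-201 was at 0.613 and 0.625 FPKM in siMEF2A, against 1.42 and 1.52 FPKM in scrambled libraries. Srpk3 was thus lower together with the muscle markers above, and the part of those markers in its value was not tested.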

How the data were processed

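RNA was sequenced from 4 libraries of C2C12 cells, 2 per group. The deposited values are FPKM per Ensembl transcript, made by the authors, per the file headers. Cufflinks, Bowtie, TopHat, Trimmomatic and CASAVA and the build mm10 are named, with no version, in the submitters' processing notes. Not given in the sources used here are the annotation, strand use, treatment of multiply mapped reads and scaling between libraries. Of 36231 listed transcripts, 35238 (97.3%) were found in GENCODE M21, from which transcript types, exons and coordinates came.

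FPKM were summed per symbol, 28 small RNA symbols were dropped, and the 11822 genes averaging 1 FPKM or more were tested as log2(FPKM + 1), two-sided, in R 4.3.3 by limma 3.58.1 (functions lmFit and eBayes, with trend moderation). Benjamini-Hochberg adjustment ran over all genes, or over 23599 transcripts in the transcript fit. The fits had 2 residual and 31.1 (genes) or 6.25 (transcripts) prior degrees of freedom, so a p rests largely on the spread pooled over genes. Relative depth came from the commonest ratio of low FPKM values among 600 genes, counted within 0.3% and shared by 11 to 17 of them, which assumes no other scaling between libraries. Absolute depth is unknown, so no counting intervals were computed.

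Of the 70 genes, 34 have an exon overlapping another gene's exon, in 26 cases on the opposite strand, and 2 (Hnrnpr and Rbm15b) have 2 gene identifiers. The named genes were the muscle regulators, the general regulators with the 4 largest rises and 4 largest falls, the 5 most abundant, those nearest the 1 FPKM limit, Srpk3, and up to 4 called genes of each other list. Genes and transcripts outside it were picked after their values were seen. The members and lists were chosen with earlier results of these data known. Alternatives were other pseudocounts, filters, scalings, moderation settings, coding transcripts alone, each library left out and a replicate block.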

Additional observations from a re-analysis of the deposited data

How the results depend on the processing

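Among the 70 regulators, 0 were called in either direction with all libraries. Rbm38 was the 1 called lower under robust moderation (limma adjusted p = 0.0228), with protein-coding transcripts alone (limma adjusted p = 0.00703) and under the replicate block (limma adjusted p = 0.00229), and the count was 0 to 1 when each library was left out. Rbm41 was the 1 called higher, under the replicate block alone (limma adjusted p = 0.00861). Of the regulators' transcripts, 0 to 2 were called higher (of Hnrnph2 and Hnrnpk, without scrambled replicate 2) and 0 to 3 lower (of Hnrnpf and Hnrnph1, without siMEF2A replicate 2) when each library was left out. A lone library is then assumed to vary like the other group. Of 263 values of 19 named regulators under alternatives, 236 kept direction and side of the threshold, 6 passed it and 21 changed sign without passing. Of 159 values of 21 named transcripts, 148 kept both, 1 passed and 10 changed sign. For the NMD and retained-intron share, each scrambled library was left out in turn after the data were seen, and no siMEF2A library was. The median difference was -3.11 percentage points against scrambled replicate 1 alone and 0.45 against scrambled replicate 2 alone.

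Over all genes, 158 were called lower and 48 higher. The lower count was 98 at a minimum mean of 5 FPKM and 290 under the block. The higher count was 14 under median-ratio and under upper-quartile scaling, 11 under quantile normalization, 30 without a filter, 25 without a trend, 73 under robust moderation, 76 with protein-coding transcripts alone, 224 under the block, and 41 to 73 with a library left out. The titles number the libraries 1 and 2 in each group, without naming a shared batch. Deviations of same-numbered libraries correlated positively, at 0.288 across genes, but 2 pairs cannot decide whether the numbers pair the libraries.

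Absolute depth is unknown, 2 libraries a group leave 2 residual degrees of freedom, and values of transcripts near 1 FPKM and of overlapping genes are the least certain. The causes of these shifts were not tested.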
